A study of Bos taurus with 21 samples.

Results

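Endometrium from pregnant heifers was compared with endometrium from cyclic heifers on day 16 after oestrus, the stage at which a cow recognises that she is pregnant. The heifers were chosen by their labels alone. They were 5 pregnant animals (heifers 1, 4, 6, 12 and 19) and 5 cyclic animals (heifers 3, 7, 15, 16 and 17), 10 of the 20 heifers and 11 of the 21 libraries in the series. The remaining 10 heifers, 5 pregnant and 5 cyclic, were slaughtered on day 13. All were cross-bred beef heifers, mainly of Charolais and Limousin descent, and their age was not given in the labels. Every heifer, controls included, had its cycle synchronised with an intravaginal progesterone device and a prostaglandin F2α analogue. The pregnant group had been inseminated and had yielded a conceptus of the proper stage on flushing, whereas the cyclic group had not been inseminated. The tissue was mostly intercaruncular endometrium from the horn beside the corpus luteum. Inseminated heifers without a conceptus were not sampled, so the pregnant group holds successful pregnancies only.

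As it elongates, the bovine conceptus releases interferon tau, a type I interferon that acts on the uterine lining. It binds the interferon receptor of endometrial cells, activates the JAK-STAT pathway and induces a broad set of interferon-stimulated genes. It also holds back the oxytocin receptor, so that the pulses of prostaglandin F2α that would end the life of the corpus luteum do not occur, and progesterone secretion continues. The comparison asks how the lining differs when a conceptus is present at this stage. The files list Ensembl bovine transcript identifiers without gene names, and 0 of 28054 identifiers matched the reference table of names. Transcripts are therefore described by abundance, effect and pattern, 4 of them carry an identifier here, and none is assigned to the interferon pathway or to a cell type. The tissue label could not be set against cell type markers for the same reason. In whole tissue, a change in the number of cells of a type and a change in RNA per cell cannot be told apart.

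Heifer 12 had 2 libraries, and the second went against its label. Counts are given as CPM, scaled to a common library size. Over 5113 transcripts averaging at least 50 CPM, the SD of the log2 difference between library 2 and the library of heifer 19 was 0.188, the smallest of 55 pairs of day 16 libraries. It was 0.345 between libraries 1 and 2 of heifer 12, which ranked 10 of 55. The second closest pair, at 0.279, also held library 2, with heifer 4. The closest pair without library 2 was cyclic heifers 16 and 17 at 0.294. Whether a label was exchanged cannot be settled from the files. Values for heifer 12 below come from library 1, and those of library 2 or of the summed libraries are given where a call turns on them. Total counts ran from 1256870 (heifer 1) to 3257988 (heifer 19) in the pregnant group and from 2196119 to 3049437 in the cyclic group. A floor of 3 counts thus stood at 2.39 CPM in heifer 1 and at 0.921 CPM in heifer 19.

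The breadth of the profile showed no difference between the groups beyond their spread. When every library was thinned to 1256870 counts, pregnant heifers had 17375 ± 107 identifiers with a count (SD, n = 5) and cyclic heifers 17370 ± 70.2 (n = 5). Heifer 6 was lowest of the pregnant group at 17212, and heifer 1 was highest at 17469. The cyclic values, from 17289 to 17426, lay inside that range. The difference of 4.9 identifiers gave an exact two-sided permutation p of 0.929, where 5 against 5 animals cannot go below 0.00794.

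A small set of transcripts was higher in pregnancy and very few were lower. Out of 14826 tested with the quasi-likelihood method of edgeR, 138 rose in the pregnant group and 4 fell at an adjusted p (Benjamini-Hochberg) below 0.05. These are 0.931% and 0.027% of those tested. The imbalance was steepest at the top of the ranking. All of the 100 transcripts with the smallest p were higher, as were 189 of the first 200 and 364 of the first 500. At an unadjusted p under 0.05 there were 603 higher (4.07%) and 399 lower (2.69%). Past a 2-fold change in the fit, called or not, 201 transcripts were higher and 44 lower. Past 8-fold the numbers were 35 and 0. Over everything tested the log2 fold change had a median of -0.001.

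Most of the called transcripts separated the animals completely. In 131 of the 138 the lowest pregnant heifer exceeded the highest cyclic heifer, against 1.56% of all transcripts tested. The same heifers chose the 138, so this separation was largely fixed in advance and is a description. In the other 7, with log2 fold changes of 0.83 to 2.27, the pregnant animal that fell into the cyclic range was heifer 19 in 5 and heifer 12 in 2. The clearest single difference was a transcript of modest read count. It had 47.8, 68.0, 71.1, 94.6 and 110 CPM in pregnant heifers 19, 4, 6, 12 and 1. In cyclic heifers it had 4.29, 5.73, 5.88, 6.27 and 6.55 CPM. The groups lay far apart, with a log2 fold change of 3.75 with SE 0.25 (edgeR adjusted p = 3.00e-09).

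**Figure D1:**
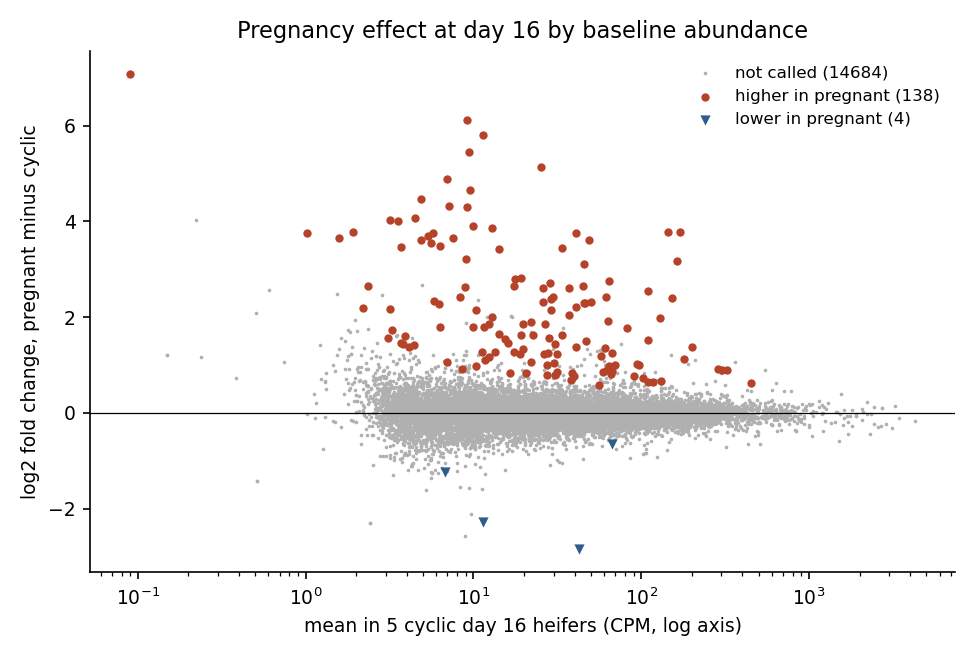
Log2 fold change (pregnant minus cyclic, day 16) of each tested transcript against its mean CPM in the 5 cyclic heifers on a log axis. The 138 transcripts called higher have cyclic means from 0.0895 to 447 CPM, and the 4 called lower lie below 100 CPM.

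The place of the called transcripts in the ranking by read count differed between the cyclic and the pregnant mean. CPM is not divided by transcript length, so these classes rank read counts, not molecules. Means of the 138 lay between 0.0895 and 447 CPM (median 24.0) in cyclic heifers and between 9.31 and 2340 CPM (median 97.2) in pregnant heifers. None of the 138 was among the 100 most heavily read transcripts in cyclic heifers, and 5 were among the 100 most heavily read in pregnant heifers. Of all tested transcripts 0.931% were called higher, so none in 100 is near that share. By pregnant mean, 68 were called higher and 2390 were not at 100 CPM and over, against 14 and 4351 at 5 to 20 CPM. The pregnant heifers also chose the transcripts, so these last counts are a description.

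From 5 CPM upwards, the share of transcripts called as higher fell with baseline abundance when the cyclic day 16 heifers set the baseline. It was 1.03% (45 of 4378) at 5 to 20 CPM, 0.820% (56 of 6828) at 20 to 100 CPM and 0.711% (17 of 2392) at 100 CPM and over. These heifers also enter the fold change. The cyclic day 13 heifers do not, and with them as baseline the shares were 0.866%, 0.963% and 0.943%. The decline was thus seen with the first baseline and not with the second. At 1 to 5 CPM the shares were 1.56% (19 of 1217) and 0.886% (11 of 1242). A transcript this low in cyclic heifers passes the filter on low counts (minimum count 10) more readily where another group was higher. Nothing is therefore read from that class. In it, with the day 16 baseline, 65 tested transcripts lay past 2-fold higher and 11 past 2-fold lower.

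Among called transcripts from 5 CPM upwards, the median effect was smaller in the classes of higher read count under both baselines. With cyclic day 16 heifers as baseline, the median log2 fold change of the called transcripts was 2.27 at 5 to 20 CPM, 1.47 at 20 to 100 and 1.13 at 100 CPM and over. With cyclic day 13 heifers it was 2.14, 1.64 and 1.38. A change of at least 4-fold was fitted for 24 of 45 in the class of 5 to 20 CPM and for 5 of 17 in the class of 100 CPM and over. Precision moved along with abundance. The median SE over all transcripts of a class was 0.26 at 5 to 20 CPM and 0.14 at 100 CPM and over, and the smallest log2 fold change called was 0.83 and 0.63. A less precisely measured transcript needed a larger fold to be called. The part of precision, of this threshold and of the filter in the differences of effect size was not tested.

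**Figure D2:**
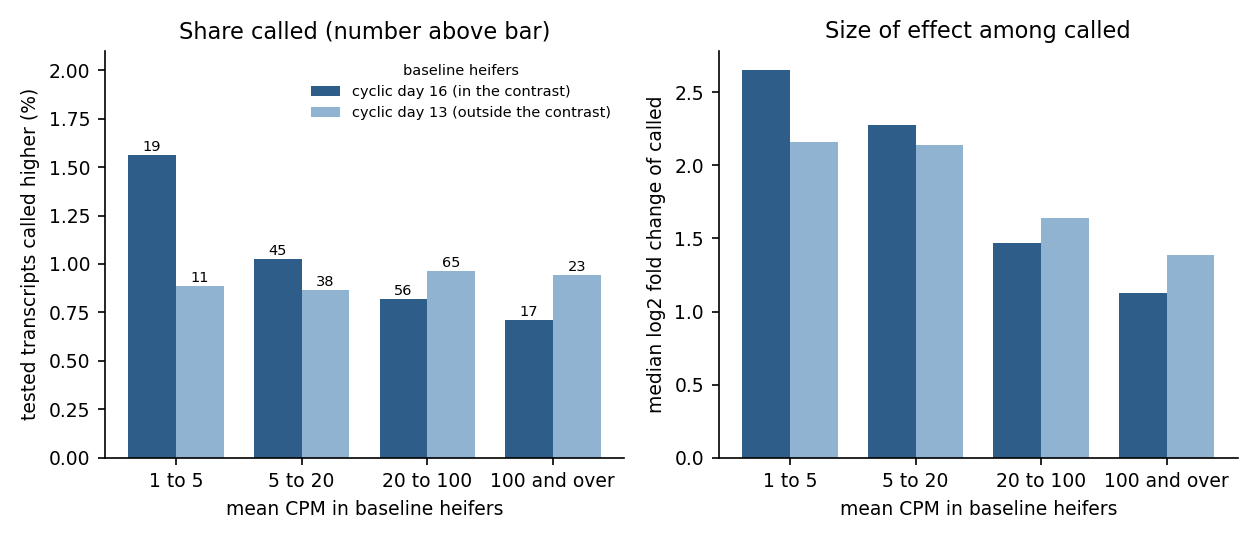
Share of tested transcripts called higher at day 16 (left, with the number called above each bar) and median log2 fold change of those called (right), by class of mean CPM in cyclic day 16 or cyclic day 13 heifers. From 5 CPM upwards the share declines from 1.03% to 0.711% with the day 16 baseline and stays between 0.866% and 0.963% with the day 13 baseline, while the median effect is smaller at 100 CPM and over than at 5 to 20 CPM with both. Entry into the class of 1 to 5 CPM depends on the filter on low counts.

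In reads rather than folds, the effect was carried by the transcripts with large changes and by a few with high counts. Summed over the 138, pregnant heifers gained 21154 CPM. Transcripts that changed at least 4-fold gave 75.6% of this gain, and the 26 that changed less than 2-fold gave 9.03%. The 10 largest gains made up 45.7%, and 13 transcripts together passed 50%. The share of all counts that fell on the 138 ran from 1.96% to 3.28% in pregnant and from 0.562% to 0.701% in cyclic heifers. These heifers chose the transcripts, so the last 2 ranges are a description.

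ENSBTAT00000012035 had the highest read count of the 138. Pregnant heifers 4, 19, 1, 12 and 6 had 1553, 1585, 2455, 2700 and 3408 CPM. Cyclic heifers 15, 3, 7, 16 and 17 had 87.0, 144, 146, 233 and 242 CPM. The lowest pregnant animal thus stood well above the highest cyclic one. Its rank among all tested transcripts was 1144 in cyclic and 10 in pregnant heifers. The log2 fold change was 3.78 with SE 0.63 (edgeR adjusted p = 0.00241), or 13.7-fold. The difference in mean log2 CPM was 4.87 within run A (2 pregnant, 1 cyclic) and 3.51 within run C (2 pregnant, 3 cyclic). Run letters stand here for a date-like code in the names of the deposited files. With that code as a term in the model, the edgeR adjusted p was 0.0467. All 5 pregnant heifers also exceeded the 10 day 13 heifers, the highest of which, pregnant heifer 14, had 1327 CPM.

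The second transcript by read count followed the first almost exactly. Its 1332 to 2894 CPM in pregnant and 75.02 to 205 CPM in cyclic heifers gave a log2 fold change of 3.78 (SE 0.63). Over the 20 heifers the ratio of the first to the second stayed between 1.14 and 1.20. Among 73 called transcripts with a cyclic mean of at least 20 CPM, 15 belonged to 9 pairs whose log2 ratio had an SD under 0.15 across heifers. How the counting shared reads between transcripts of 1 gene or between paralogues is not given in the sources used here. The number of transcripts may therefore exceed the number of genes.

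The next transcripts by read count showed other degrees of induction. The third had 780, 1331, 1381, 1422 and 2404 CPM in pregnant heifers 4, 19, 1, 12 and 6, and 136 to 233 CPM in cyclic heifers. Its log2 fold change was 3.17 with SE 0.58 (edgeR adjusted p = 0.00555), and with the run code as a term in the model the adjusted p was 0.0692. Day 13 heifers reached 1010 CPM of it, above the value of pregnant heifer 4. The fourth rose from 17.1 to 31.5 CPM in cyclic heifers to 412, 637, 986, 1133 and 1248 CPM in pregnant heifers 19, 4, 6, 12 and 1. With a log2 fold change of 5.13 with SE 0.62 (edgeR adjusted p = 7.17e-05), it moved from rank 8146 to rank 72. The fifth was the most even of these. It had 593 to 948 CPM in pregnant against 142 to 169 CPM in cyclic heifers, a log2 fold change of 2.40 with SE 0.28 (edgeR adjusted p = 1.56e-05).

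Most of the called transcripts were higher from a level already present in cyclic heifers. A transcript was taken as switched on when no cyclic heifer had more than 3 counts and every pregnant heifer had more, and as induced from a base when every cyclic heifer had more than 3 counts. By this rule 131 of the 138 were induced from a base, 1 was switched on and 6 lay between. Most tested transcripts were present in cyclic heifers. Of the 14826, 11 had a cyclic mean under 1 CPM and 1217 one of 1 to 5 CPM. The share of all tested transcripts with such a base was not computed, so 131 of 138 is not read as a trait of the called ones. The 131 held 99.5% of the gain in CPM. Over all 14826 tested transcripts the same single transcript met the rule for switching on, and 0 met its mirror, at most 3 counts in every pregnant and more in every cyclic heifer. Over all 28054 identifiers, including those removed by the filter on low counts, 3 met the rule and 2 its mirror. The filter shaped the counts among tested transcripts, so nothing is read from 1 against 0.

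ENSBTAT00000005991 was the one switched on. Pregnant heifers 19, 12, 4, 1 and 6 had 8.94, 10.9, 16.9, 23.0 and 27.2 CPM, from 29, 31, 45, 29 and 52 counts. Cyclic heifer 7 had a single count (0.448 CPM), and the other 4 cyclic heifers had 0, which allows up to 0.984 to 1.27 CPM in each. With 186 counts against 1, the ratio was 203 with a 95% exact interval of 36.0 to 8070.8 for counting error. The adjusted p by edgeR was 1.66e-05. The fitted log2 fold change of 7.07 rests on that count and was 8.43 without cyclic heifer 7. The transcript was not silent earlier in the cycle, since day 13 heifers reached 2.43 CPM in the pregnant and 6.29 CPM in the cyclic group. Its day 13 means were 1.07 and 1.90 CPM. The filter on low counts thus let it in through the pregnant day 16 heifers, where it was high, and its adjusted p carries that limit.

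The 6 transcripts between the classes were low in cyclic heifers without being absent. Their means were 1.02 to 3.17 CPM in cyclic and 10.5 to 28.7 CPM in pregnant heifers, with log2 fold changes of 2.16 to 3.78. The one closest to switching on had 13 counts in the 5 cyclic heifers together, at most 5 in any of them, and 156 counts in the pregnant heifers. It exceeded 3 counts in 2 of 10 day 13 heifers, whereas the other 5 did so in at least 8. The filter on low counts thus let this transcript in through the pregnant day 16 heifers, where it was high, and its call carries that limit. Whether the other 5 would have passed the filter without those heifers was not tested. The strongest change among the 131 induced transcripts started from a low base. It had 4.62, 5.10, 9.54, 11.2 and 15.5 CPM in cyclic heifers, and 230, 475, 763, 828.6 and 852 CPM in pregnant heifers 19, 4, 12, 6 and 1. The log2 fold change was 6.12 with SE 0.93 (edgeR adjusted p = 0.00103).

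**Figure D3:**
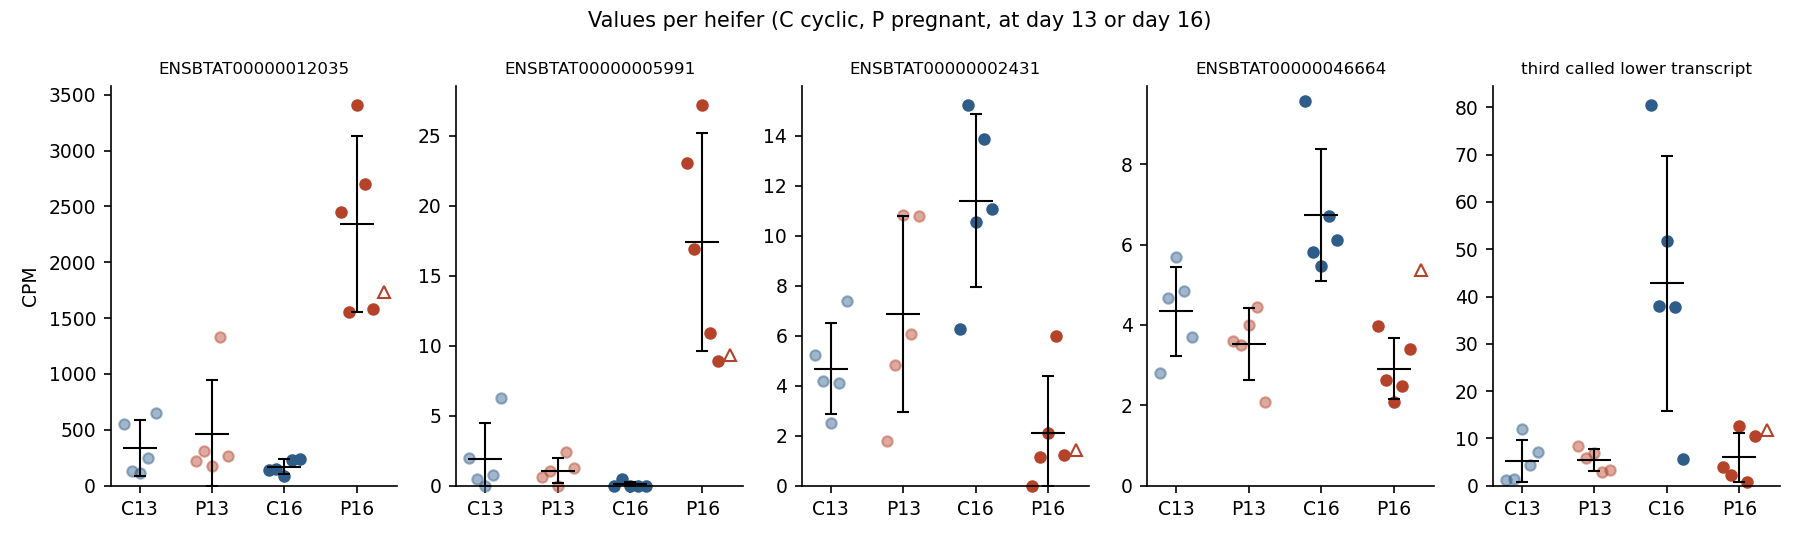
CPM in each heifer for the 4 transcripts with identifiers and the third of the transcripts called lower, in cyclic (C) and pregnant (P) heifers at days 13 and 16. Points are heifers, horizontal marks are means with SD (n = 5, lower bars end at 0), and the open triangle is library 2 of heifer 12. ENSBTAT00000012035 and ENSBTAT00000005991 are higher in the 5 pregnant day 16 heifers than in the 15 others, and the third lower transcript is raised in 4 of 5 cyclic day 16 heifers.

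The day 13 heifers, which are outside the day 16 contrast, gave a second reference for the higher transcripts. The mean log2 CPM of pregnant day 16 heifers was above that of cyclic day 13 heifers in 138 of 138, with a median difference of 1.502. The contrast chose these transcripts for high values in the same pregnant day 16 heifers, so this direction was largely fixed in advance. The share over all tested transcripts was not computed. In 81 of the 138, the lowest pregnant day 16 heifer exceeded all 15 other heifers of the series, a pattern held by 0.614% of all tested transcripts (91). The cyclic heifers also differed between days. In 124 of the 138 the cyclic mean was lower at day 16 than at day 13, with a median difference of -0.36 log2 units, where 49.2% of all tested transcripts had the lower mean at day 16. The contrast favours transcripts with low values in the cyclic day 16 heifers. The part of that selection in these 124 was not tested.

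Pregnant heifers differed from each other in the strength of the response, and the differences ran across many transcripts. The median over the 138 of the log2 difference from the cyclic mean was 2.23 in heifer 1, 1.94 in heifer 6, 1.89 in heifer 12, 1.42 in heifer 4 and 1.38 in heifer 19. In cyclic heifers, each set against the other 4, it lay between -0.17 and 0.16. Heifers 1 and 6 were the highest of the group in 77 and 49 of the 138 transcripts. Heifers 19 and 4 were the lowest in 85 and 43. Heifer 1 was thus highest for 55.8% of the 138, against 24.7% of the 13599 tested transcripts with a pregnant mean of at least 5 CPM. Heifer 19 was lowest for 61.6%, against 21.4%. Heifer 1 had the smallest library and heifer 19 the largest. The part of depth in these ranks was not tested.

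The order of the heifers was similar in small and in large effects. Among the 12 transcripts of 16-fold and over, the median difference from the cyclic mean was 3.78 in heifer 19 and 4.05 in heifer 4, against 4.80 in heifer 12, 4.91 in heifer 6 and 4.93 in heifer 1. Among the 26 of less than 2-fold it was 0.50 and 0.60 in heifers 19 and 4, and 0.78, 0.98 and 1.00 in heifers 12, 6 and 1. Heifer 19, with the lowest median, exceeded every cyclic heifer in 133 of the 138. It was among the heifers that chose the 138, so this count was largely fixed in advance. Its share over all tested transcripts was not computed. Library 2 of heifer 12 had a median of 1.39, close to the 1.38 of heifer 19 and below the 1.89 of library 1. Within run A the median difference over the 138 was 2.20 and within run C it was 1.74, with 138 of 138 positive in each. Over all tested transcripts these medians were -0.023 and 0.0018. The same heifers chose the 138, and 131 of them showed no overlap between groups. Their sign within a run was thus largely fixed in advance. Runs B and D each held day 16 heifers of a single group.

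**Figure D4:**
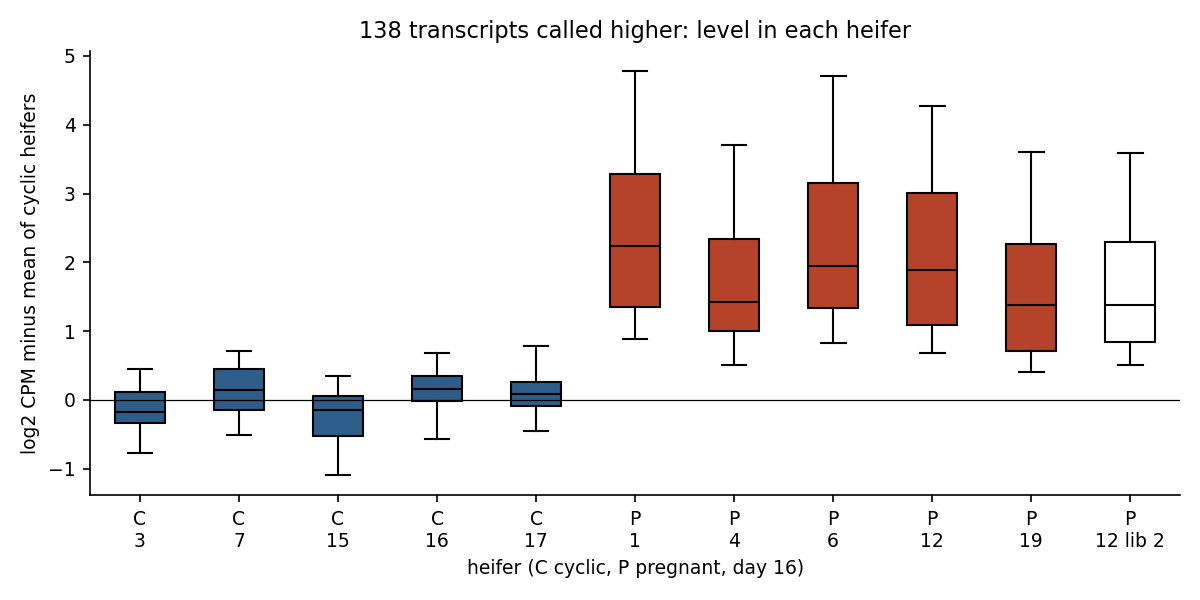
Difference of log2 CPM from the mean of the cyclic day 16 heifers (for a cyclic heifer, of the other 4) over the 138 transcripts called higher, for each day 16 heifer and for library 2 of heifer 12 (open box). Boxes span the quartiles, lines are medians and whiskers reach from the 5th to the 95th percentile. Medians run from 1.38 in heifer 19 to 2.23 in heifer 1, and from -0.17 to 0.16 in cyclic heifers.

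The higher transcripts varied more between pregnant than between cyclic heifers. The median SD of log2 CPM over the 138 was 0.41 in pregnant and 0.30 in cyclic heifers, and the SD was larger in the pregnant group for 109 of them (79.0%). Among the 13461 other transcripts with a pregnant mean of at least 5 CPM, the medians were 0.27 and 0.25, and the SD was larger in pregnant heifers for 54.5%. At 100 CPM and over, the median SD of the called transcripts was 0.38 in pregnant and 0.25 in cyclic heifers, against 0.20 and 0.19 in the rest. At 5 to 20 CPM the SD was larger in pregnant heifers for 11 of 14 called transcripts, and for 8 of 14 (57.1%, against 54.2% of the rest) with a prior count of 0.5. Among the called transcripts the median SD in pregnant heifers rose with the effect, from 0.28 below 2-fold to 0.66 at 16-fold and over. Cyclic heifers showed the same gradient, from 0.22 to 0.58. The SD was larger in pregnant heifers for 20 of 26 below 2-fold and for 8 of 12 at 16-fold and over. A small fold passes the threshold only where the spread is small. The median cyclic mean also differed, at 60.7 CPM below 2-fold and 8.19 CPM at 16-fold and over. The part of the threshold and of abundance in the gradient was not tested.

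The fold between the highest and the lowest pregnant heifer had a median of 1.99 and ran from 1.17 to 10.3 over the 138. It was under 2-fold in 72 and over 4-fold in 7. The transcript with the narrowest range had 190, 196, 210, 217 and 222 CPM in pregnant heifers 4, 19, 1, 12 and 6. Its cyclic values of 123 to 138 CPM were as tight, so a log2 fold change of 0.66 was well resolved (SE 0.096, edgeR adjusted p = 0.000149). The transcript with the widest range had 37.95, 131, 223, 394 and 398 CPM in heifers 4, 19, 1, 12 and 6. Its cyclic heifers were uneven too, at 2.91, 3.78, 5.73 and 9.57 CPM with heifer 7 at 26.0 CPM. Library 2 of heifer 12 had 132 CPM of this transcript, against 394 CPM in library 1 and 131 CPM in heifer 19.

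**Figure D5:**
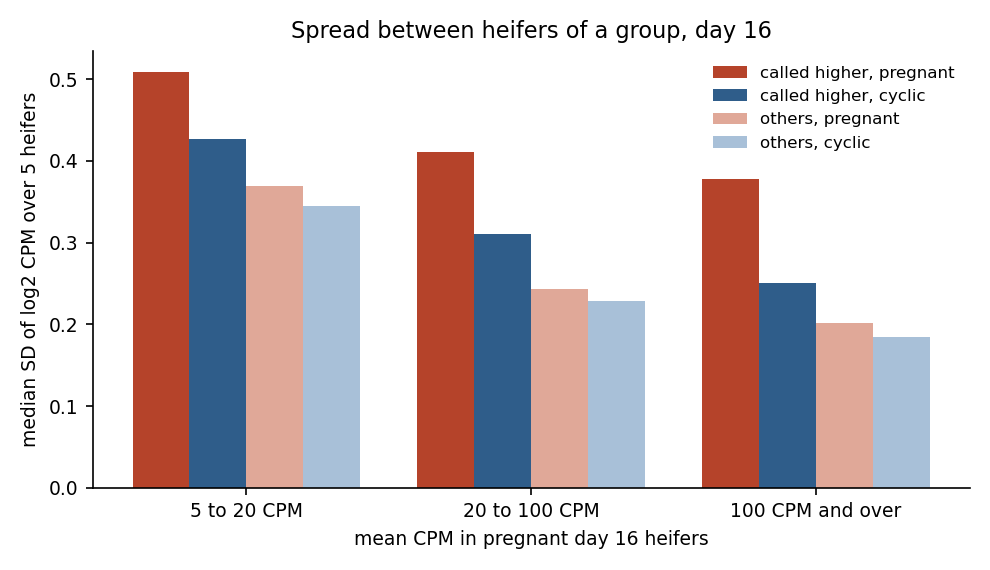
Median SD of log2 CPM over the 5 heifers of a group, for the transcripts called higher and for the other tested transcripts, by class of mean CPM in pregnant heifers. In the class of 100 CPM and over the called transcripts have a median SD of 0.38 in pregnant and 0.25 in cyclic heifers, against 0.20 and 0.19 in the others.

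The 4 transcripts called lower had cyclic means of 6.73 to 67.1 CPM. Their log2 fold changes were -2.27, -1.23, -2.84 and -0.66 in order of adjusted p, and 2 of the 4 separated the groups without overlap (0.486% of all tested transcripts did so in this direction). The other 2 are given without identifier. The same heifers chose the 4, so this separation is a description too. The count was 1 without cyclic heifer 3 or without pregnant heifer 12, 2 without cyclic heifer 15, and 0 with the run code in the model, where 358 transcripts were lower at an unadjusted p under 0.05. DESeq2 called 8 as lower and limma voom 2. With the libraries of heifer 12 summed the count was 3, and with library 2 in place of library 1 it was 3, of which 2 were among the 4. A fit to the day 16 heifers alone called 6, of which 1, ENSBTAT00000002431, was among the 4.

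ENSBTAT00000002431 showed the smallest adjusted p among them. Cyclic heifers 3, 15, 17, 16 and 7 had 6.27, 10.6, 11.1, 13.85 and 15.2 CPM. Pregnant heifers 1, 4, 19, 6 and 12 had 0, 1.13, 1.23, 2.09 and 6.002 CPM, where 0 counts in heifer 1 allows up to 2.39 CPM. Heifer 12 lay just under the lowest cyclic heifer, and its library 2 had 1.43 CPM. The log2 fold change was -2.27 with SE 0.48 (edgeR adjusted p = 0.0118), and -3.18 without heifer 12. It passed in 8 of 10 fits that left out a heifer, the exceptions being those without pregnant heifers 19 and 4 (adjusted p = 0.0522 and 0.0525). The difference in mean log2 CPM was -2.29 within run A and -2.19 within run C.

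ENSBTAT00000046664 fell from 5.46, 5.82, 6.11, 6.72 and 9.57 CPM in cyclic heifers 15, 7, 17, 16 and 3 to 2.09, 2.47, 2.63, 3.39 and 3.97 CPM in pregnant heifers 6, 12, 4, 19 and 1. These values rest on 89 counts in all cyclic and 34 in all pregnant heifers. The log2 fold change was -1.23 with SE 0.28 (edgeR adjusted p = 0.0245). It did not pass without cyclic heifers 3 or 16 or without pregnant heifers 4, 6 or 12, where the adjusted p lay between 0.0522 and 0.143. With the libraries of heifer 12 summed it was 0.0681, with library 2 in place of library 1 it was 0.184, and with the day 16 heifers alone 0.0564. Library 2 of that heifer had 5.38 CPM, close to the cyclic values.

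The third lower transcript had the largest fold of the 4 and the widest spread. Cyclic heifers 16, 7, 15 and 3 had 37.8, 38.05, 51.7 and 80.5 CPM, whereas cyclic heifer 17 had 5.73 CPM. Pregnant heifers 12, 4, 1, 19 and 6 had 0.706, 2.25, 3.97, 10.5 and 12.6 CPM. Cyclic heifer 17 thus lay inside the pregnant range. Library 2 of heifer 12 had 11.8 CPM. Day 13 heifers of both groups had 1.20 to 12.1 CPM, similar to the pregnant day 16 heifers. The log2 fold change was -2.84 with SE 0.64 (edgeR adjusted p = 0.0323), and it passed in 3 of 10 fits that left out a heifer, those without cyclic heifer 17, pregnant heifer 6 or pregnant heifer 19. In the other 7 the adjusted p lay between 0.0543 and 0.123. It was 0.0542 with library 2 of heifer 12 in place of library 1, 0.0793 with no filter, 0.110 with limma voom, 0.139 with the run code and 0.208 with the day 16 heifers alone.

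The fourth lower transcript had a small and even difference. Pregnant heifers had 33.5 to 54.1 CPM and cyclic heifers 51.6 to 81.2 CPM, and pregnant heifer 4 overlapped the cyclic range. Its log2 fold change was -0.66 with SE 0.16 (edgeR adjusted p = 0.0493), and it passed in 2 of 10 fits that left out a heifer. With the day 16 heifers alone the adjusted p was 0.0781. Another 3 lower transcripts had an adjusted p between 0.05 and 0.1, with log2 fold changes of -0.92, -1.03 and -0.63, and did not pass.

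How far the call of a higher transcript depended on single animals varied with its fold. Of the 138, 107 (77.5%) were called in all 10 fits that left out a heifer, and 91 in all 21 alternatives set out in the methods. Below 2-fold 12 of 26 were called in all 10 fits, from 2- to 4-fold 38 of 50, from 4- to 8-fold 23 of 28, from 8- to 16-fold 22 of 22 and at 16-fold and over 12 of 12. The 47 that missed at least 1 of the 21 alternatives had a median log2 fold change of 1.25, against 2.32 in the 91.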

How the data were processed

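RNA of 20 endometrial samples was sequenced as single reads on Illumina instruments, per the labels' protocols. The values the authors deposited are raw read counts per Ensembl transcript. The submitters' processing notes list CASAVA. Which aligner, counter, annotation, build and strand setting were used is not given in the sources used here, so counts of overlapping, antisense or paralogous transcripts are uncertain. Transcripts were kept by filterByExpr (minimum count 10, minimum total 15). TMM factors (trimmed mean of M values) scaled the libraries, and counts were fitted with edgeR 4.0.16 (R 4.3.3, quasi-likelihood, robust) to all 20 heifers in 4 group means, which share 1 estimate of the spread. Benjamini-Hochberg adjustment ran over all 14826 transcripts. The SE is the fold change divided by the root of its F statistic. Heifer values are TMM-scaled CPM, with a prior count of 2 on the log2 scale. Identifier rule: the called higher transcript with the highest pregnant mean, the switched-on one, and the 2 called lower with the smallest adjusted p. Transcripts without identifier were picked for rank, fold or range after their values were seen. The fit was tested on simulated counts. Alternatives used DESeq2 1.42.0, limma 3.58.1, other scaling and filters, the run code, day 16 heifers alone, other uses of the libraries of heifer 12, and each heifer left out. Members, lists and rules were chosen with earlier results of these data known. Gene lists drawn up for the case of named transcripts were not tested, since no identifier had a name. Thinned values are means of 10 draws. Without molecular identifiers, reads are not independent molecules, so intervals and floors cover counting error only.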

Additional observations from a re-analysis of the deposited data

Results flagged for a closer look

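A search for heifers far from the rest of their group covered 36 sets of 5 values and found 3. The limit used would flag about 1 in 20 independent sets of normally distributed values. Many of these sets were CPM of transcripts picked for rank, fold or range, some of them linked, so that rate need not hold. For ENSBTAT00000005991 the flagged animal was cyclic heifer 7, whose 1 count made 0.448 CPM where the remaining cyclic animals had 0. Any value above 0 is flagged in such a set. For the higher transcript with the widest range among pregnant heifers the flagged animal was again cyclic heifer 7, at 26.0 CPM. The remaining ones had 2.91 to 9.57 CPM. For the third higher transcript by read count it was cyclic heifer 16, at 233 CPM where the remaining ones had 136 to 155 CPM. Library 2 of heifer 12, kept out of the comparison, held 2.03% of its counts in the 138 higher transcripts, above the 0.562% to 0.701% of the cyclic heifers. It closely resembled the library of heifer 19, which held 1.96% and was among those that chose the 138. The share of library 2 is therefore not a separate check.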

How the results depend on the processing

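The number of higher transcripts stayed within 1.5 times of 138 in every alternative, from 112 with the run code to 177 with DESeq2, and from 116 to 157 without single heifers. It was 141 with the libraries of heifer 12 summed (137 shared), 130 with library 2 in place of library 1 (125 shared) and, chosen after seeing the data, 145 without pregnant heifers 12 and 19. The number of lower transcripts was 1 with no filter, 2 with a minimum count of 30, 2 with limma voom, 8 with DESeq2, 0 with the run code, and 1 to 5 without single heifers. The cause was not tested. The share called at 1 to 5 CPM was 2.20 times that at 100 CPM and over, and 0.940 times with the day 13 baseline, in a class whose entry depends on the filter. The median log2 fold change at 5 to 20 CPM exceeded that at 100 CPM and over by 1.14, and by 0.75 with that baseline. The switched-on transcript numbered 0 with a limit of 0 counts and 2 with a limit of 5 counts in cyclic heifers. The difference in identifiers detected, 4.9, was -18.9 with at least 3 counts and ran from -18.5 to 45.7 without single heifers (exact permutation p from 0.302 to 1). The share of higher transcripts with the larger SD in pregnant heifers was 76.6% with summed libraries and 75.4% with a prior count of 0.5, against 79.0%. No paired analysis was possible because the groups share no heifer number. Nothing in the labels puts heifers of different groups in pairs. Depth limits the transcripts below about 5 CPM, where the median SE was 0.39.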
